A study of Mus musculus with 4 samples.

Results

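The 9 genes described here are those of 8 MHC class I heavy chains, H2-K1, H2-D1, H2-T23, H2-T22, H2-T9, H2-Bl, Gm8909 and Gm11127, and of B2m, their light chain. They were picked by symbol, from 23305 genes, with the values of these 4 libraries already in view, so the comparison of the genotypes is given for them as a description with no p-value. RNA had been sequenced from quiescent follicular B cells that were sorted from the spleens of female mice as live, B220+ CD23-high CD21-low cells negative for CD80 and for switched isotypes. The 2 WT libraries came from C57BL/6 mice and the 2 Ets1-/- libraries from mice of a C57BL/6 x 129Sv background, which lacked the transcription factor Ets1 in every cell of the body. No treatment was given, and neither the age of the mice nor the number of mice behind a library is stated in the sources used here. Strain and genotype therefore changed together and cannot be told apart, and class I genes of the H2 complex are known to differ between mouse strains in number and sequence. Values are FPKM, a measure of the fragments of each gene scaled by the authors to its transcript length and to the mapped reads of the library, so levels of different genes can be compared per length. In bulk RNA, fewer cells of a type and less RNA per cell cannot be told apart.

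An MHC class I molecule is a heavy chain held at the cell surface together with β2-microglobulin, the product of B2m, and with a short peptide. The classical heavy chains H2-K and H2-D show peptides from the cell's own proteins to CD8 T cells, and nearly every nucleated cell makes them. The class Ib heavy chains of the T region are less polymorphic and are recognised by other receptors: Qa-1, the product of H2-T23, by the CD94/NKG2 receptors of NK cells, and the product of H2-T22 by some γδ T cells. Transcription of many class I genes runs through a shared set of promoter elements, a κB element, an interferon response element and a module whose elements resemble CRE and CCAAT sequences.

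These elements could be looked for in 7 of the 9 genes, which had a promoter entry in RefSeq (build GRCm38.p6, a later build than the mm9 of the expression files), while H2-T9 and H2-Bl had none in the table used. H2-K1 had 2 entries, of which the first was taken. Shown are the 200 bases before the start site of the 2 classical genes, of H2-T22, a class Ib gene that was higher in both Ets1-/- libraries, of the gene with the widest difference (Gm8909) and of the light chain. Each is written 5′ to 3′ along the gene, and capitals mark every match, on either strand, to GGGGATTCC (κB), TTTCNNTT (interferon response-like), TGACG (CRE-like), CCAAT and GGAAGT (ETS-like).
H2-K1 (chr17:34000348-34000547, minus strand): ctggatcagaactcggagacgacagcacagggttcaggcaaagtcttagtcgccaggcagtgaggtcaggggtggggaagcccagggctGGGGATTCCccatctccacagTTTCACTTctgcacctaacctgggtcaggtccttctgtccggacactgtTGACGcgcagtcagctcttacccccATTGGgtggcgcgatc
H2-D1 (chr17:35262894-35263093, plus strand): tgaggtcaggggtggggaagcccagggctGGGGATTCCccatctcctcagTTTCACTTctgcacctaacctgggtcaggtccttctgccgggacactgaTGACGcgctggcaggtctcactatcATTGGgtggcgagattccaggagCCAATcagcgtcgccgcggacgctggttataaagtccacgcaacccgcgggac
H2-T22 (chr17:36042743-36042942, minus strand): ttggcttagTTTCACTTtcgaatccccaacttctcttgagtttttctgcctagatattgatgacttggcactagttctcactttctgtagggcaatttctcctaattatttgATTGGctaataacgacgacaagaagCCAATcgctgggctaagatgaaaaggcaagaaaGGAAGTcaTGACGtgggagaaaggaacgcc
Gm8909 (chr17:36168538-36168737, minus strand): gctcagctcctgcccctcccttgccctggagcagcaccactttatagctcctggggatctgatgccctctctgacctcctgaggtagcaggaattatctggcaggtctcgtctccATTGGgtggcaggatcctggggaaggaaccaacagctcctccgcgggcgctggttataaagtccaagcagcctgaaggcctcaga
B2m (chr2:122147487-122147686, plus strand): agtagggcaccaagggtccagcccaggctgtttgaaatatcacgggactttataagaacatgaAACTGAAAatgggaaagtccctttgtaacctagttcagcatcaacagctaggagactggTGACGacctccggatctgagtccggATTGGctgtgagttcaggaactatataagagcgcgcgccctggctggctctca

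H2-K1 and H2-D1 carried the same order of letters, a κB match, an interferon response-like match 21 bases further on, a CRE-like match and a reversed CCAAT, which began at positions -111, -90, -41 and -16 of H2-K1 and at -171, -150, -101 and -76 of H2-D1, counted from the base before the start site. The κB letters were in 0.259% of the 27025 promoters of the same length (250 bases before to 50 after the start) and in none of the other 5 members with an entry. The H2-T22 window held TTTCACTT at -191, a TGACG at -22 and the only GGAAGT among the 7 promoters, at -30, letters that 24.1% of all promoters hold. The Gm8909 window held a single match, a reversed CCAAT at -85, and CCAAT was in 37.9% of all promoters. B2m had a reversed interferon response-like match at -137 and a TGACG at -78, which 24.2% and 21.0% of promoters hold. H2-T23 (TTTCNNTT at -124 and -81, CCAAT at -52) and Gm11127 (reversed matches to CCAAT at -140 and to TTTCNNTT at -66) are not printed. A match of letters is a description of this window and not a binding site.

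A single library stood apart at H2-Ea-ps, a gene of the H2 complex. Other genes of the complex differed from WT in both Ets1-/- libraries, as given below. H2-Ea-ps, the class II Eα gene, was at 1.05 and 0.185 FPKM in WT replicates 1 and 2, at 0.632 in Ets1-/- replicate 1 and at 2795 in Ets1-/- replicate 2. As background, the b haplotype of C57BL/6 lacks the promoter of this gene and makes no transcript from it, and strains of the 129 family are of a b type as well, so the library labelled Ets1-/- replicate 2 went against its strain label at this gene. What that library carries at the H2 complex was not tested beyond the values given here. Results below are therefore given for each Ets1-/- library, and the library is named as labelled. The whole-gene FPKM of Ets1 was 231 and 275 in WT and 229 and 229.8 in Ets1-/-, and since a transcript with a deleted part can still be counted, it checks nothing about the knockout. Relative depth, estimated from the steps between low values, was between 0.850 and 1.71 times that of WT replicate 1. Summed FPKM of 7 B cell markers was 6120 and 5984 in WT and 4916 and 5842 in Ets1-/-, with none of the 7 at 0, whereas 8 neutrophil markers summed to 111 and 90.9 in WT and to 2466 and 677 in Ets1-/-. The 6 NK cell markers summed to 38.7 and 24.7 in WT and to 19.0 and 26.9 in Ets1-/-, and 4 of the 6 (Ncr1, Klrb1c, Gzma and Prf1) were below WT in both Ets1-/- libraries, with a median log2 difference of -0.90. The 6 erythroid markers also had a higher sum in Ets1-/- (6.22 and 4.84 in WT, 87.9 and 27.6 in Ets1-/-). Of the macrophage or monocyte markers, which summed to 62.3 and 30.7 in WT and to 148 and 94.1 in Ets1-/-, Lyz2 and Emr1 were higher in Ets1-/- and the other 5 of 7 tested overlapped. The sums for 7 T cell markers (90.7, 72.4, 88.2 and 114), 6 dendritic cell markers (5.49, 4.65, 7.29 and 6.82) and 6 plasma cell markers (181, 201, 156 and 167) overlapped or differed by less, and no gene of these lists was at 0 in every library. Of the 6 plasma cell markers, 3 were above WT in both Ets1-/- libraries, Sdc1 and Prdm1 among them. Xbp1 and Irf4 were below WT in both, and 1 overlapped.

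The classical heavy chains made up most of the class I RNA and overlapped between the genotypes. H2-K1 (mm9 chr17:34132962-34137278, minus strand) was at 1493 and 1452 FPKM in WT and at 1494 and 1329 in Ets1-/-. H2-D1 (chr17:35399675-35404444, plus strand) was at 1186 and 1222 in WT and at 1145 and 1357 in Ets1-/-. For each of them the genotypes overlapped, and the difference of the means on the log2(FPKM + 1) scale, Ets1-/- minus WT, was -0.06 (SE 0.21) for H2-K1 and 0.05 (SE 0.21) for H2-D1. B2m (chr2:121973422-121978819, plus strand), which every heavy chain needs to reach the surface, was at 2144 and 2889 in WT and at 3013 and 2433 in Ets1-/-. Its WT mean of 2516 ± 527 (SD, n = 2) and Ets1-/- mean of 2723 ± 410 (SD, n = 2) differed by less than the replicates did, a log2 difference of 0.12 (SE 0.29).

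**Figure D1:**
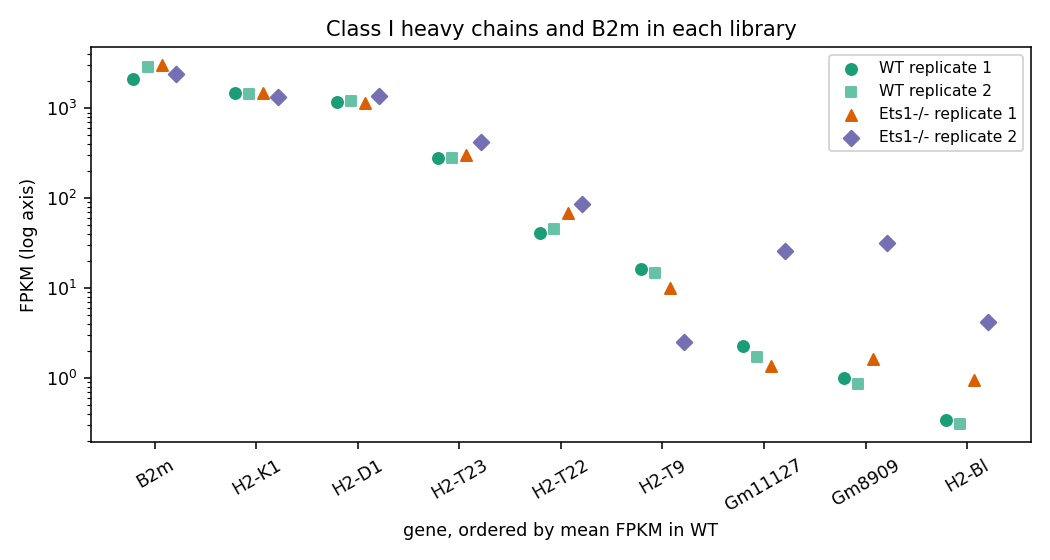
FPKM (log axis) of the 9 genes in each of the 4 libraries, each library with its own colour and symbol. H2-K1, H2-D1 and B2m lie at 1145 FPKM or more in every library, and Gm8909 and Gm11127 are near 32.1 and 26.2 FPKM in Ets1-/- replicate 2 against at most 2.26 in the other 3.

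H2-T23 and H2-T22, the members whose receptors are named above, were higher in both Ets1-/- libraries than in both WT libraries. The same held for 19.4% of all genes tested. H2-T23 (chr17:36166718-36169800, minus strand) was at 284 and 282 FPKM in WT and at 303 and 425 in Ets1-/-. H2-T22 (chr17:36174073-36179692, minus strand) was at 41.5 and 45.6 in WT and at 68.6 and 87.5 in Ets1-/-. The log2 difference of the means was 0.34 (SE 0.22) for H2-T23 and 0.82 (SE 0.18) for H2-T22. Against the WT mean, H2-T22 was 0.64 higher in Ets1-/- replicate 1 and 0.99 higher in replicate 2, and H2-T23 was 0.10 and 0.58 higher, all on the log2 scale.

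The other 4 heavy chain genes were the members in which the Ets1-/- libraries themselves differed 2-fold or more. H2-T9 (chr17:36264424-36266370, minus strand), a T region gene, was at 16.3 and 14.9 FPKM in WT, at 10.11 in Ets1-/- replicate 1 and at 2.52 in replicate 2, and was below WT in both. H2-Bl (chr17:36201920-36221168, minus strand), a blastocyst class I gene that the annotation lists as a polymorphic pseudogene, was at 0.342 and 0.307 in WT and at 0.967 and 4.24 in Ets1-/-. Gm8909 (chr17:36301388-36305482, minus strand), a class I gene named only by a number, was at 1.02 and 0.859 in WT, 1.64 in Ets1-/- replicate 1 and 32.1 in replicate 2, which is 34.2 times the WT mean. Gm11127 (chr17:36192761-36195316, minus strand), also named by a number, was at 2.26 and 1.74 in WT, 1.38 in Ets1-/- replicate 1 and 26.2 in replicate 2, so that replicate 1 was the lowest of the 4 libraries and replicate 2 the highest. The log2 differences of the means were -1.41 (SE 0.54) for H2-T9, 1.28 (SE 0.47) for H2-Bl, 2.27 (SE 1.15) for Gm8909 and 1.43 (SE 1.11) for Gm11127. As plain differences from the WT mean on that scale, Ets1-/- replicate 1 alone was at -0.58, 0.57, 0.44 and -0.33, in the same order, and replicate 2 alone at -2.24, 1.98, 4.09 and 3.18.

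Across the 10949 genes whose mean in WT or in Ets1-/- reached 1 FPKM, limma with Benjamini-Hochberg adjustment called 186 changed at a 2-fold difference and an adjusted p of 0.05 or less, or 1.7%. All 9 members passed this filter, 7 of them in WT as well and 2 (H2-Bl and Gm8909) only through their Ets1-/- values. None of the 9 was called and 3 were at an unadjusted p under 0.05, as were 13.3% of all genes tested, of which nothing is read since the genes were chosen on this contrast. Under the alternatives that kept all 4 libraries none was called, except 3 (H2-T9, H2-Bl and Gm8909) when replicates of unlike number were paired. That pairing called 409 of all genes tested, so nothing is read from these 3 either. With a library left out, the lone library of a genotype is assumed to vary as the other genotype does. No call of a member is given for those fits. Without Ets1-/- replicate 2, H2-Bl was under the filter. The genotypes did not overlap for 5 members, 4 higher and 1 lower in Ets1-/-, and did not overlap for 41.6% of all genes tested (19.4% higher and 22.2% lower in Ets1-/-). On the log2(FPKM + 1) scale the 2 Ets1-/- libraries differed 2-fold or more for 4 of the 9 members and for 2.87% of all genes tested, and the 2 WT libraries for 0 of the 9 and for 1.56%. The neutrophil, erythroid and macrophage or monocyte marker sums were highest in Ets1-/- replicate 1, and the T cell sum in replicate 2. Of the members, H2-K1 and B2m were highest in Ets1-/- replicate 1 and H2-T9 in WT. H2-D1, H2-T22, H2-T23, H2-Bl, Gm8909 and Gm11127 were highest in Ets1-/- replicate 2. The part of other cells in the values of the members was not tested.

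**Figure D2:**
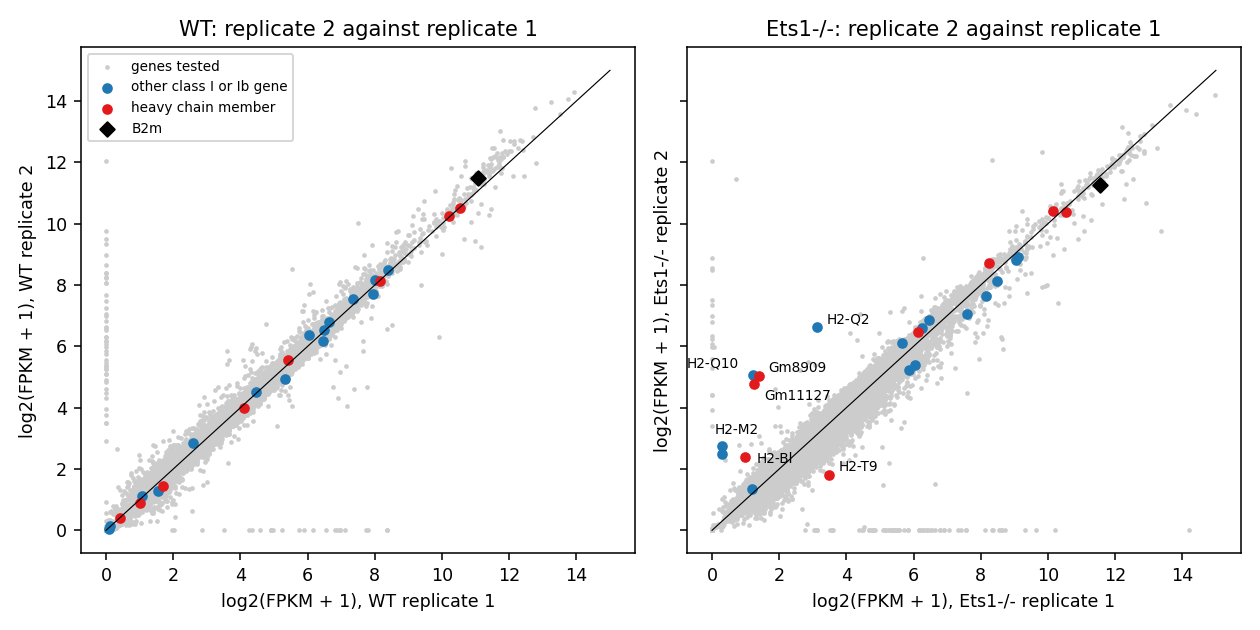
log2(FPKM + 1) of replicate 2 against replicate 1 for WT (left) and Ets1-/- (right), with every gene tested in grey, the 8 heavy chain members in red, B2m as a black diamond, other class I and Ib genes in blue and equal values on the line. In WT the class I genes lie along the line, whereas in Ets1-/- Gm8909, Gm11127, H2-Q2, H2-Q10, H2-M2 and H2-Bl lie above it and H2-T9 below it.

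The difference between the Ets1-/- libraries on log2(FPKM + 1), which shrinks that of low genes, was ranked over the 10084 tested genes that could be placed on the mm9 annotation and are not of a small RNA class. H2-Ea-ps ranked 1, H2-Q10 5, Gm8909 6, Gm11127 7, H2-Q2 8 and H2-M2 12, followed among the members by H2-T9 at 29 and H2-Bl at 41. H2-T23 ranked 1682, H2-T22 3382, B2m 4015, H2-D1 5218 and H2-K1 6722. H2-Ea-ps, Gm8909, H2-Bl and H2-M2 were tested only through their Ets1-/- values. Of these, H2-Ea-ps, H2-Bl and H2-M2 were under 1 FPKM in replicate 1 too, so the filter in part fixed a difference between the libraries. Nothing is read from the ranks of these genes, and Gm8909 and H2-Ea-ps are also in the 8-fold counts that follow. On that scale 9 of the 10084 differed 8-fold or more between the Ets1-/- libraries and 1 between the WT libraries. Over all 10949 genes tested, with small RNA and unplaced genes included, 97 differed 8-fold or more between the Ets1-/- libraries. From 200 kb before H2-K1 to 200 kb after H2-M2, which holds 125 tested genes with small RNA genes included, 6 differed 8-fold or more on that scale, 5 of them higher in replicate 2 and 1 (Mir877) higher in replicate 1, and 4 of the 6 were class I or Ib genes.

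**Figure D3:**
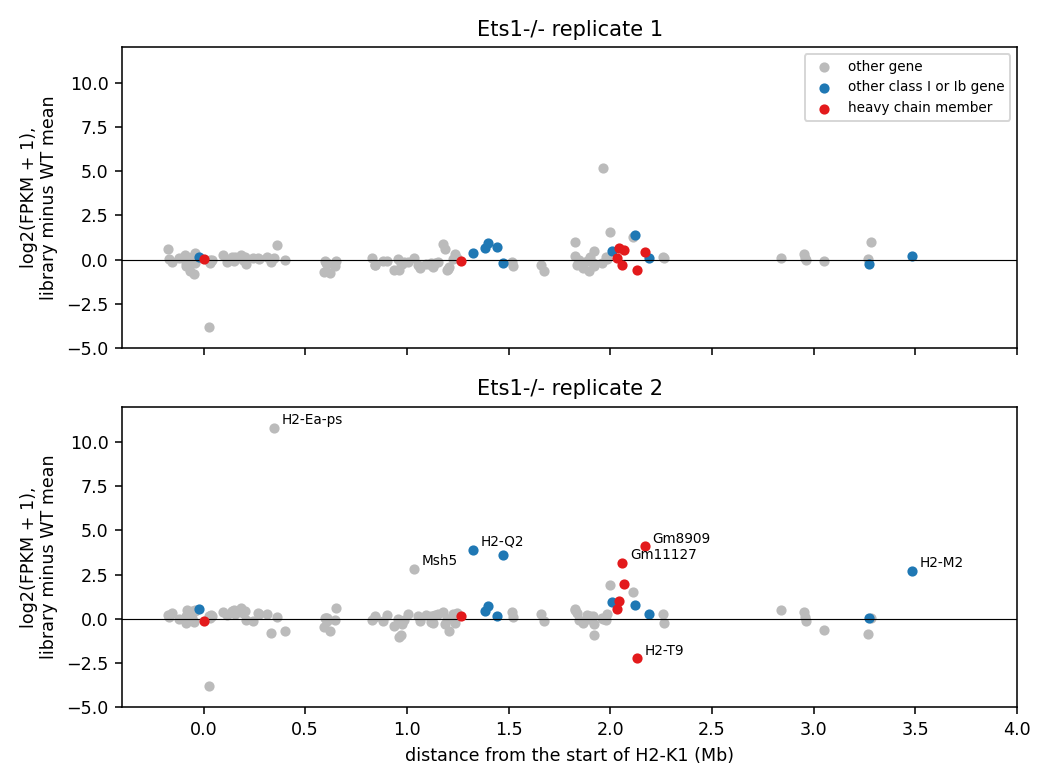
Difference from the WT mean on log2(FPKM + 1) of each tested gene along the H2 complex against distance from the start of H2-K1 in Mb, for Ets1-/- replicate 1 (top) and replicate 2 (bottom), with heavy chain members in red, other class I and Ib genes in blue and other genes in grey. In the lower panel Gm8909 (4.09), Gm11127 (3.18), H2-T9 (-2.24) and H2-Ea-ps (10.8) stand away from 0, and in the upper panel the same genes lie at 0.44, -0.33, -0.58 and 0.06.

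In WT the order of the levels, from the highest, was B2m, H2-K1, H2-D1, H2-T23, H2-T22, H2-T9, Gm11127, Gm8909 and H2-Bl, and each neighbour in that order was apart from the next in both WT libraries. Over all 4 libraries H2-K1 and H2-D1 were not apart, nor were H2-T9 and Gm11127, Gm11127 and Gm8909, or Gm8909 and H2-Bl. The sum of the 8 heavy chain genes was 3025 and 3019 FPKM in WT and 3024 and 3263 in Ets1-/- (log2 difference 0.06), and H2-K1 and H2-D1 supplied 88.6% and 88.6% of it in WT, 87.3% in Ets1-/- replicate 1 and 82.3% in replicate 2. The sum of the 6 class Ib genes was 346 and 346 in WT against 385 and 577 in Ets1-/-. Both sums leave out the other class I and Ib genes, among them the abundant Q genes given below. The heavy chain sum per B2m was 1.41 and 1.05 in WT and 1.00 and 1.34 in Ets1-/-, a spread within each genotype larger than the log2 difference of -0.07 between them.

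Several of these genes share sequence, and how the authors assigned reads that match more than 1 gene is not stated in the sources used here. Shared windows were counted only among the protein-coding transcripts of the mm9 annotation. Class I entries listed there as a pseudogene (H2-K2) or a processed transcript (H2-Q8) were not counted. Nor were those not matched to it (H2-L, H2-Q1, H2-Q5 and H2-Q9). Genes that overlap a member in the genome were left out as well. They were Patl2 for B2m, Gm7030 and RP23-108F2.4 for H2-T9, RP23-108F2.6 for Gm8909 and Gm6034 for Gm11127. The shares of all members may therefore be too low. Of the distinct 50-base windows in its annotated transcripts, B2m shared 0% with any other gene counted, H2-K1 7.29% and H2-D1 12.8%. H2-T23 shared 14.8%, Gm8909 12.3% and H2-Bl 9.06%, each with H2-Q2 first. H2-T22 shared 40.6%, mostly with H2-T10, while H2-T9 shared 60.8% and Gm11127 61%, mostly with each other. Of 100-base windows H2-T22 shared 10.9%, H2-T9 44.6% and Gm11127 42.0%. The levels of H2-T9 and Gm11127 are therefore uncertain, and that of H2-T22 as far as reads were short. Sequence that the other members share with the entries not counted was not checked. The sum of H2-T22 and H2-T10, chosen after their values were seen, was 62.4 and 67.5 FPKM in WT and 126 and 124 in Ets1-/-, 1.92 times the WT mean. The sum of H2-T9 and Gm11127, chosen in the same way, was 18.6 and 16.6 in WT and 11.5 and 28.7 in Ets1-/-.

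Among the other class I and Ib genes of the H2 complex, mostly Qa and T region heavy chains, 15 of 28 were tested, 0 were called and 5 (H2-Q4, H2-Q8, H2-Q9, H2-T10 and H2-T24) were at an unadjusted p under 0.05 by limma. In 12 of the 15 both Ets1-/- values lay above both WT values, as in 19.4% of all genes tested, but H2-Q1 and H2-M2 among the 12 passed the filter only through their level in Ets1-/-. The median log2 difference was 0.61, against 0.34 for the members and -0.02 over all genes tested. H2-T10, the gene that shares most sequence with H2-T22, was at 20.9 and 21.9 FPKM in WT and at 57.1 and 36.9 in Ets1-/- (log2 difference 1.07, adjusted p = 0.12, limma), so that, unlike H2-T22, it was higher in replicate 1 than in replicate 2. The abundant Q genes had that order too, with H2-Q8, for example, at 258 and 285 against 526 and 447, and H2-Q4 at 335 and 361 against 548 and 481 (H2-Q5, H2-Q7 and H2-Q9 likewise). The pattern of Gm8909 was shared by H2-Q2, at 5.04 and 6.22 in WT and at 7.67 and 97.8 in Ets1-/-, and by H2-Q10, at 1.92 and 1.43 against 1.33 and 32.1, H2-Q1, at 0.0774 and 0.103 against 0.216 and 4.62, and H2-M2, at 0.0709 and 0.0404 against 0.234 and 5.79. These 4 genes were called when Ets1-/- replicate 1 was left out, with the spread taken from the WT libraries alone. H2-T24, H2-K2 and H2-T3 were higher in both Ets1-/- libraries without being called, and H2-M3, which presents formylated peptides, overlapped between the genotypes. The values of the entry named H2-L overlapped as well. That entry could not be placed on the mm9 annotation, and which gene its reads came from was not tested.

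**Figure D4:**
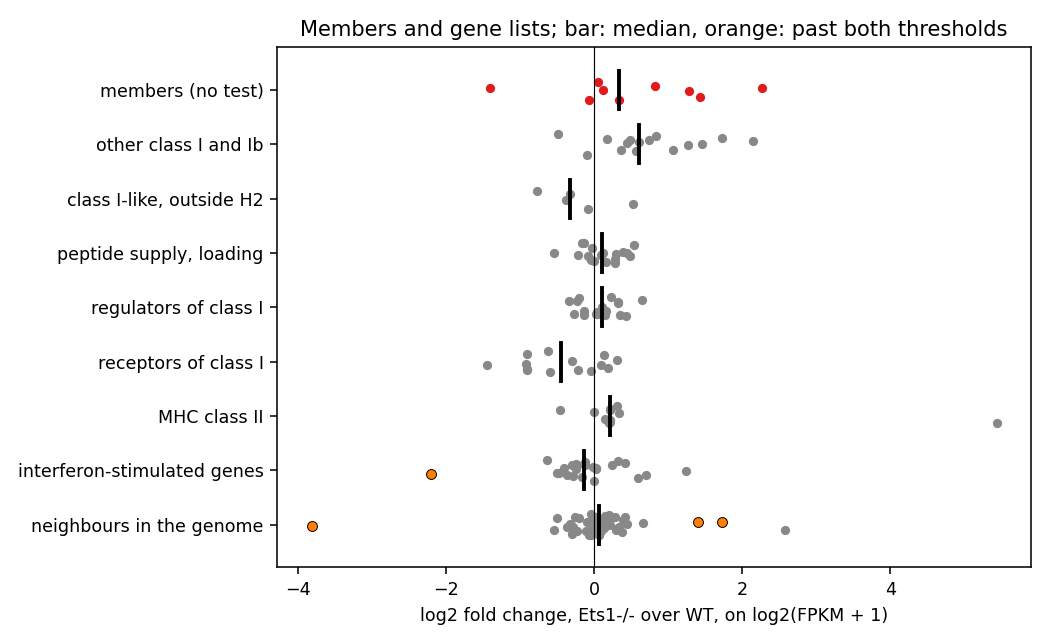
log2 difference, Ets1-/- minus WT on log2(FPKM + 1), of each tested gene of the members and the lists, with the median marked. The members and the other class I and Ib genes have medians of 0.34 and 0.61, and the lists of peptide supply and regulators lie near 0.10 and 0.11.

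Genes that work with the members were counted in the same fit, in which 13.3% of all genes tested were at an unadjusted p under 0.05. Of 18 genes of peptide supply and loading 0 were called and 2 (Psmb10 and Psme1) were at an unadjusted p under 0.05 by limma, with a median log2 difference of 0.10. Of these, Psme1, a proteasome activator subunit, was at 303 and 298 FPKM in WT and at 378 and 467 in Ets1-/- (0.48, adjusted p = 0.37). Of 19 regulators of class I transcription 0 were called and 1 (Rfx5) was at an unadjusted p under 0.05, with a median of 0.11. Of 14 receptors that bind class I 0 were called, 4 (Lilrb3, Klra1, Klrd1 and Klrk1) were at an unadjusted p under 0.05 and the median was -0.45, and Pira2, at 8.31 and 7.40 against 5.43 and 0.626, was called without Ets1-/- replicate 1. Several of these receptors are genes of NK cells, of whose markers 4 of 6 were also lower in Ets1-/- (median -0.90), and their part in the median was not tested. Of 5 class I-like genes outside the H2 complex 0 were called, with 2 (Cd1d2 and H60b) at an unadjusted p under 0.05 and a median of -0.33. Of 11 class II genes 0 were called and 0 were at an unadjusted p under 0.05, with a median of 0.21, and without Ets1-/- replicate 1 the gene called was H2-Ea-ps. Of 24 interferon-stimulated genes, whose response class I genes share, 1 was called and 7 were at an unadjusted p under 0.05, with a median of -0.14. Of the 7, Isg15, Mx2, Gbp2 and Zbp1 were higher in Ets1-/-, and Ifit2, Oas2 and Oasl2 were lower. The gene called was Oasl2, which fell from 4.77 and 3.84 in WT to 0.144 and 0.146 in Ets1-/- (log2 difference -2.21, SE 0.17, adjusted p = 0.00969, limma) and was not called when either Ets1-/- library was left out. Without replicate 1 the gene called in this list was Gbp2.

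Within 200 kb of a member on chromosome 17, 62 genes outside the class I and Ib lists used here were tested. Of these 3 were called, and the median log2 difference was 0.06. C920025E04Rik, a pseudogene 15791 bases from H2-T9, rose from 12.8 and 14.5 FPKM in WT to 35.02 and 40.2 in Ets1-/- (log2 difference 1.40, adjusted p = 0.0239, limma). Whether C920025E04Rik shares sequence with the class I genes around it was not tested. A930015D03Rik rose from 5.44 and 5.58 to 18.02 and 23.3 (1.72, adjusted p = 0.0182, limma). It lies on the plus strand across H2-T24, H2-T23 and a part of H2-T22, and the labels name no strand-marking kit. Its reads may therefore be mixed with theirs, a limit that holds for the levels of H2-T24, H2-T23 and H2-T22 as well. Whether exons overlap was not checked. Mir219-1, a microRNA gene, was at 17.3 and 9.85 in WT and listed at 0 in both Ets1-/- libraries (-3.82, adjusted p = 0.00785). C920025E04Rik was called in none of the 4 fits with a library left out, A930015D03Rik was not called without either WT library, and Mir219-1 was not called without either Ets1-/- library. Beside H2-D1, Ddx39b was at 234 and 233 against 248 and 298, and beside H2-K1, Ring1 was at 22.3 and 21.6 against 21.0 and 24.7, neither called.

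Among the 6545 genes that averaged 10 FPKM or more, the 3 whose deviations over the 4 libraries were nearest to those of H2-K1 were Ttc9c, Pced1b and Ikzf3, with root mean square distances of 0.0154, 0.0155 and 0.0157 on the log2 scale. For B2m they were U2af1 (0.0116), Rbm8a (0.0131) and 5430416N02Rik (0.0220). For Gm8909 the nearest was H2-Q2, at 0.154, and the next, Sapcd1 and Mir103-2, were at 0.638 and 0.903. With 4 libraries this likeness describes only these samples.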

How the data were processed

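RNA-seq of 4 libraries (2 WT, 2 Ets1-/-) was used. Per the labels and the study's methods, the authors aligned reads to mm9 with TopHat2 2.0.13 and deposited FPKM values per gene symbol from Cuffdiff. The annotation and any scaling are not given in the sources used here. FPKM are not counts, so no count test was run, and no column of per-sample values was left unmapped (0). Of 23309 entries 4 with repeated symbols were left out. Positions came from GENCODE M1 (21162 genes matched). limma 3.58.1 in R 4.3.3 was fitted to log2(FPKM + 1), with a trend, for genes whose mean reached 1 FPKM in WT or in Ets1-/- (residual degrees of freedom 2, prior 3.10). log2 differences understate changes of low genes. With 2 against 2, permutation cannot reach a p of 0.05. The members and lists were chosen with earlier results of these data known. Named genes are all members, all tested class I genes, called and nearest neighbours, and the 3 genes most alike to 3 members. In the other lists they are genes called in a fit or at an unadjusted p under 0.05 by limma, so these were chosen by their values. Replicates of the same number had deviations correlated at -0.21, so the numbers were not taken to pair the samples.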

Additional observations from a re-analysis of the deposited data

How the results depend on the processing

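The number of genes called was 186, against 75 with no filter on low values, 305 with robust variance estimation and between 130 and 144 with a replicate left out. With the replicate number as a block 266 were called and with the crossed pairing, chosen after seeing the data, 409. The block changed no member's call and raised the interferon-stimulated genes called from 1 to 2 (robust estimation also 2), the added gene being Gbp2, named after its values were seen. With a replicate left out, calls ranged from 0 to 4 among the other class I and Ib genes, 0 to 1 among receptors, class II and interferon-stimulated genes, and 1 to 2 among the neighbours, of which 1 was called with no filter. The lists of peptide supply, regulators and class I-like molecules had 0 calls in each of these fits. The log2 difference of the heavy chain sum, 0.06, reversed to -0.0075 for H2-K1 and H2-D1 alone, and ranged from 0.0011 (without Ets1-/- replicate 2) to 0.11 with a replicate left out. H2-K1 moved from -0.06 to -0.27 under quantile normalization and H2-Bl from 1.28 to 2.34 with a pseudocount of 0.1. The number of fragments behind a value is unknown, which limits the members near 1 FPKM most.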

Other observations

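Other genes in the H2 complex also stood apart in Ets1-/- replicate 2. Msh5, a meiotic recombination gene, was at 2.98 and 1.93 FPKM in WT, 2.67 in Ets1-/- replicate 1 and 23.1 in replicate 2, and Sapcd1 was at 5.59, 5.32, 5.13 and 36.3 in the same order. Outside the complex, Eps8l1 on chromosome 7 was at 12.8 and 11.2 in WT, 21.9 in Ets1-/- replicate 1 and 0.0693 in replicate 2. Atf3, a stress response factor, was at 1.03 and 3.91 in WT, 37.3 in Ets1-/- replicate 1 and 3.54 in replicate 2. These genes were chosen after their values were seen.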
